A study of Homo sapiens with 6 samples.

Results

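The genes described here carry proteins into human mitochondria, fuse and divide the organelle, and build its outer membrane. Members were taken by gene symbol: every TIMM or TOMM gene with a number, the fusion and division genes MFN1, MFN2, OPA1, DNM1L, FIS1 and MFF, the porins VDAC1 to VDAC3, the processing peptidase genes PMPCA and PMPCB, the CHCHD genes 2, 3, 4 and 10, and SAMM50, MTX1, MTX2 and IMMT. The rule found 44 of the 17918 genes in the table. Of these, 43 were among the 12612 genes with enough counts to test, and TOMM20L, a relative of the receptor gene TOMM20, had 0 counts in all 6 libraries. RNA was sequenced from KMS11, an established cell line derived from multiple myeloma, a plasma cell malignancy. In 3 libraries the cells held a short hairpin RNA (shRNA) against CRIP1, labelled CRIP1 knockdown, and in the other 3 a scrambled hairpin, labelled WT, with no further treatment in either group. Each group is a single line carrying 1 named hairpin construct, and no label ties a library to a culture of its own, so p-values measure the spread between these libraries, which may be technical.

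Nearly all mitochondrial proteins are encoded in the nucleus, made in the cytosol and imported. They enter through the translocase of the outer membrane (TOM), after which the TIM23 complex moves precursors with a cleavable leader into the matrix, the small TIM chaperones and TIM22 place carrier proteins in the inner membrane, the sorting and assembly machinery (SAM) inserts barrel proteins such as the porins, and a matrix peptidase cuts the leader off. The organelle itself is reshaped by large GTPases, with mitofusins and OPA1 joining membranes and DRP1, the product of DNM1L, dividing them.

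CRIP1, which encodes a small LIM domain protein, had 2791, 3327 and 3174 TPM (transcript level per length, scaled to an equal sum in every library) in scramble replicates 1 to 3 and 127, 129 and 134 TPM in knockdown replicates 1 to 3. Its knockdown level was 4.2% of the scramble level. Library totals lay between 16971454 and 18005318 estimated counts. Plasma cell markers summed to 8370 to 8810 TPM in scramble and to 3790 to 4050 TPM in the knockdown, with 3 of 8 tested higher and 5 lower. JCHAIN made up most of this sum in scramble, with a mean of 6443 TPM against 1789 TPM in the knockdown. The 3 higher were TNFRSF17, CD38 and IRF4, so the sum mostly follows 1 gene. Erythroid markers summed to 3.86 to 5.66 TPM in scramble, where 11 of 13 were at 0 counts in all libraries, and to 743 to 750 TPM in the knockdown, with 11 of 12 tested higher. Epithelial markers summed to 10.3 to 13.3 against 84.0 to 90.1 TPM and myeloid markers to 0.94 to 1.27 against 7.18 to 7.84 TPM, while none of the 6 T and NK cell markers had enough counts to test. The part of these markers in the results below was not tested. In bulk RNA, fewer cells of a type and less RNA per cell cannot be told apart.

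Members that passed the edgeR test in KMS11 cells with the CRIP1 hairpin more often stood lower than higher, and by modest amounts. That split depended on the scaling, with 16 higher and 15 lower when log2(TPM + 1) was tested with limma. By edgeR's quasi-likelihood test with Benjamini-Hochberg adjustment over all genes tested, at a threshold of 0.05, 21 of 43 members fell and 11 rose, and 11 did not pass. The largest decrease was that of TOMM40L, a relative of the TOM channel, at -1.07 on the log2 scale, and the largest increase was that of TOMM70, a TOM receptor, at 0.62. PMPCA, DNM1L and CHCHD3 fell by 0.86, 0.71 and 0.66. The edgeR counts stand beside a transcriptome that moved widely. Of all genes tested, 77.6% were called, 39.4% as higher and 38.1% as lower, against 74.4%, 25.6% and 48.8% of the members. TPM values of the groups did not overlap for 32 of the 43 members, a share close to the 78.5% of all genes tested. With 3 against 3 libraries, an exact permutation test of 1 gene's levels cannot go below a p of 0.1.

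**Figure D1:**
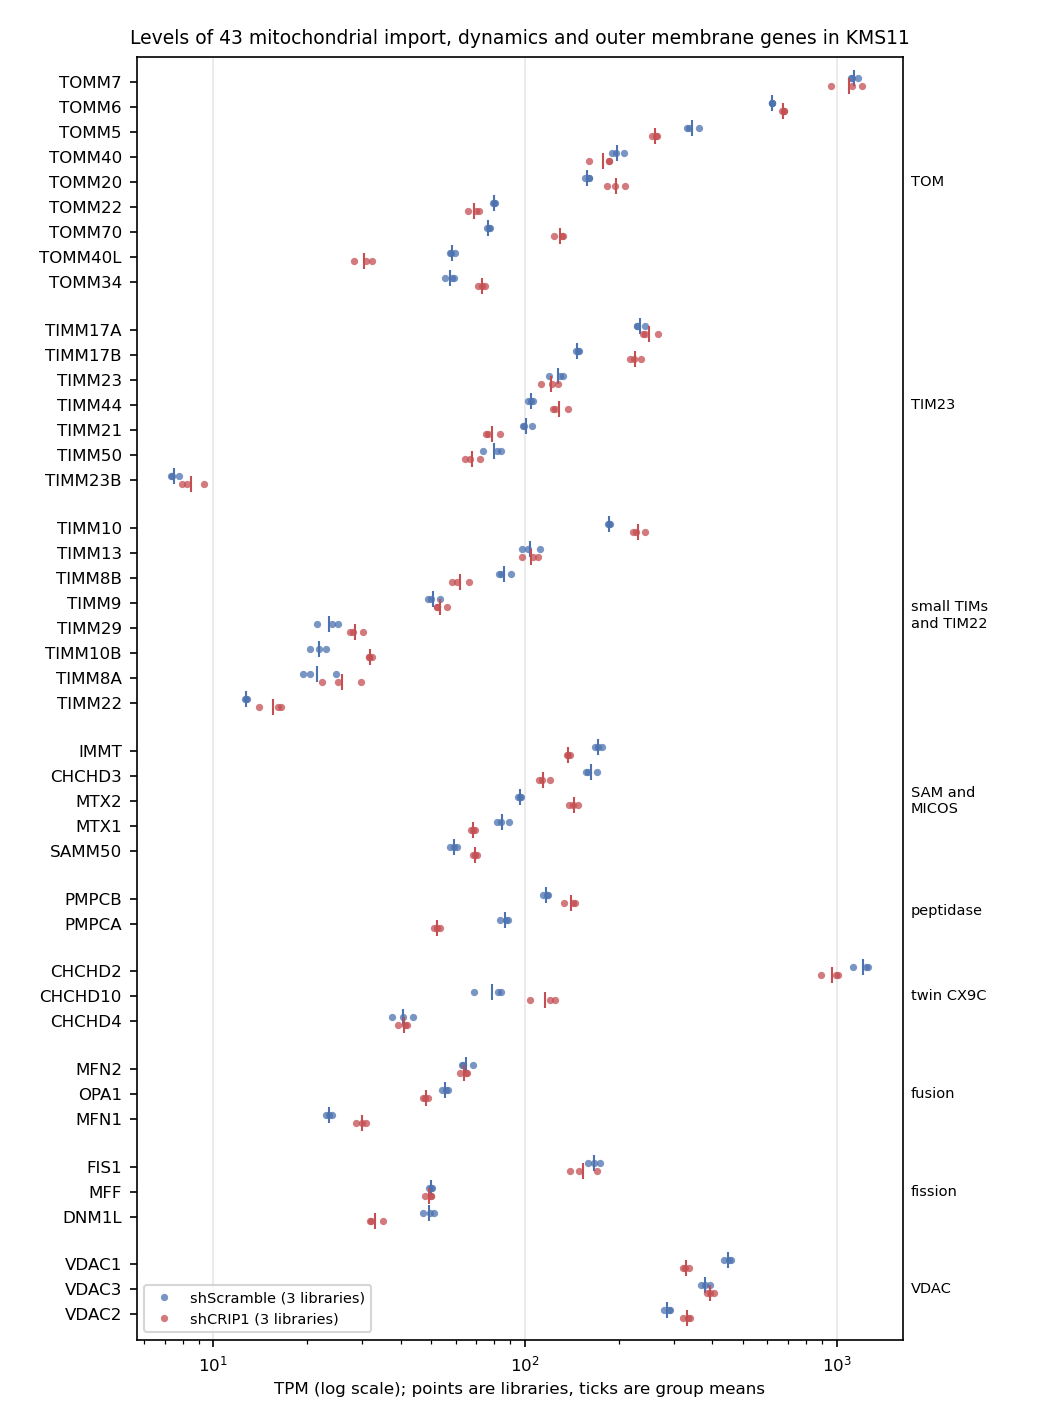
Level of each of the 43 tested members on a log axis of TPM, with 1 point per library for the 3 scramble and 3 knockdown libraries and a tick at each group mean, ordered by role. TOMM7 and CHCHD2 stand highest and TIMM23B lowest, and the groups of TOMM40L, PMPCA, DNM1L and VDAC1 are separated with the knockdown lower.

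The members stood above most genes tested in level. The median tested member stood at 86.4 TPM in scramble, against 17.8 TPM for all genes tested, and 41 of 43 were above 20 TPM. Among the 5967 tested genes with at least 20 TPM in scramble, 35.0% were higher and 47.1% lower, with a median log2 fold change of -0.08. This set was picked by scramble level alone. It leaves out genes that reach 20 TPM only in the knockdown, and so leans toward lower calls by construction. The median was -0.10 in the members and 0.01 in all genes tested. The median absolute log2 fold change was 0.22 in members, 0.33 in the abundant genes and 0.41 in all genes tested. Only 7 members (16.3%) changed by 1.5-fold or more, against 25.1% of abundant genes and 35.4% of all genes tested, and TOMM40L alone passed 2-fold. Summed over all members, the level was 7648, 7695 and 7671 TPM in scramble and 7427, 7379 and 7458 TPM in the knockdown, so that 0.765% to 0.769% of the transcripts in scramble and 0.738% to 0.746% in the knockdown came from these genes. The most abundant members weigh most in this sum. From scramble to knockdown, mean TPM went from 1212 to 964.4 for CHCHD2, 1135 to 1097 for TOMM7 and 619.7 to 675.5 for TOMM6. The sum therefore does not describe a shared change of the members.

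The member counts differed between alternatives that change the scaling, the test or the GC trend. The median of all genes was 0.01 in the edgeR fit, 0.12 when log2(TPM + 1) was tested with limma, and -0.08 when each library's trend with GC content was removed. The split of 11 higher and 21 lower became 14 and 19 with upper-quartile scaling in the same edgeR fit, 16 and 15 on the TPM scale, 16 and 16 with log2(FPKM + 1), and 8 and 27 with the GC trend removed. Relative to the median of all genes, the members' median was -0.11 in the edgeR fit, -0.11 on the TPM scale and -0.14 with the GC trend removed. A called direction held for 23 members in all alternatives other than a test against a 1.2-fold change, with 8 of these higher and 15 lower. The 8 were TOMM70, TOMM34, TIMM17B, TIMM44, TIMM10, TIMM10B, MTX2 and CHCHD10. The 15 were TOMM40L, TOMM40, TOMM22, TOMM5, TIMM21, TIMM50, TIMM8B, CHCHD3, IMMT, MTX1, PMPCA, CHCHD2, OPA1, DNM1L and VDAC1.

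**Figure D2:**
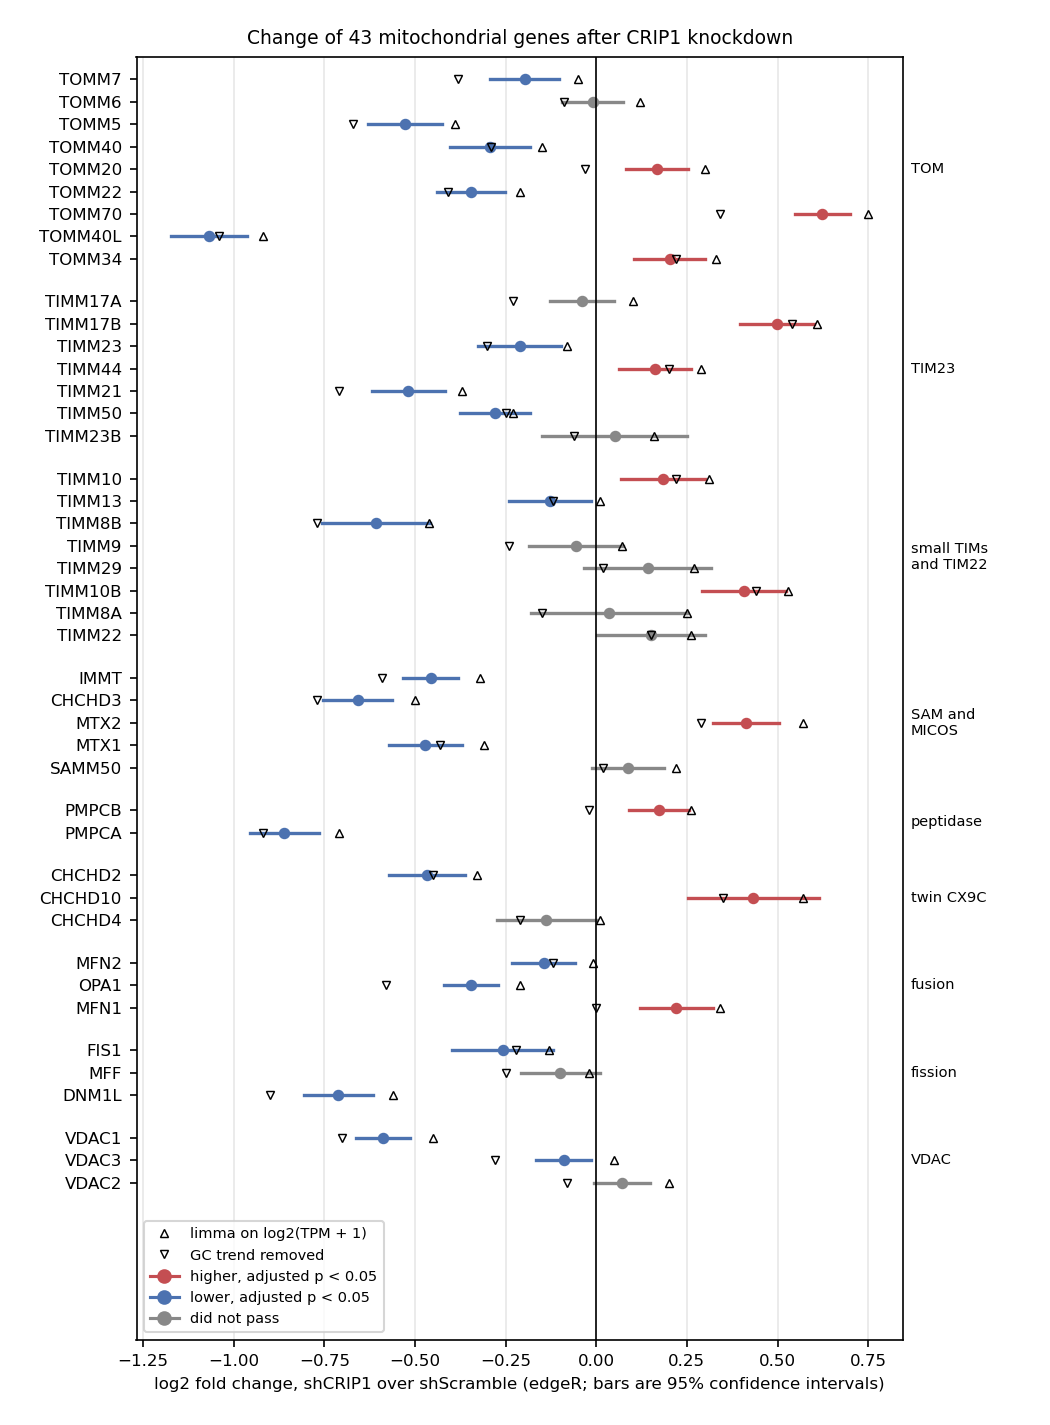
Log2 fold change of each member, knockdown over scramble, from edgeR (circles, with bars for the 95% confidence interval; red higher, blue lower, grey not passing) beside the values on the log2(TPM + 1) scale (upward triangles) and with the GC trend removed (downward triangles). Upward triangles lie to the right of the circles in all rows. TOMM20, PMPCB, TIMM13 and VDAC3, called in edgeR, have a triangle across the zero line, and MFN1, also called, has one on that line.

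Other mitochondrial gene lists moved to differing extents, beside 39.4% higher and 38.1% lower among all genes tested. Of 78 mitochondrial ribosome genes tested, 34 were higher and 31 lower, with a median log2 fold change of 0.00. Respiratory complex genes had 17 higher and 47 lower of 80 tested and a median of -0.16, and the SLC25 carriers, which are clients of TIM22, had 13 higher and 21 lower of 44 and a median of -0.16. The members lie between these lists, and no difference between lists was tested.

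**Figure D3:**
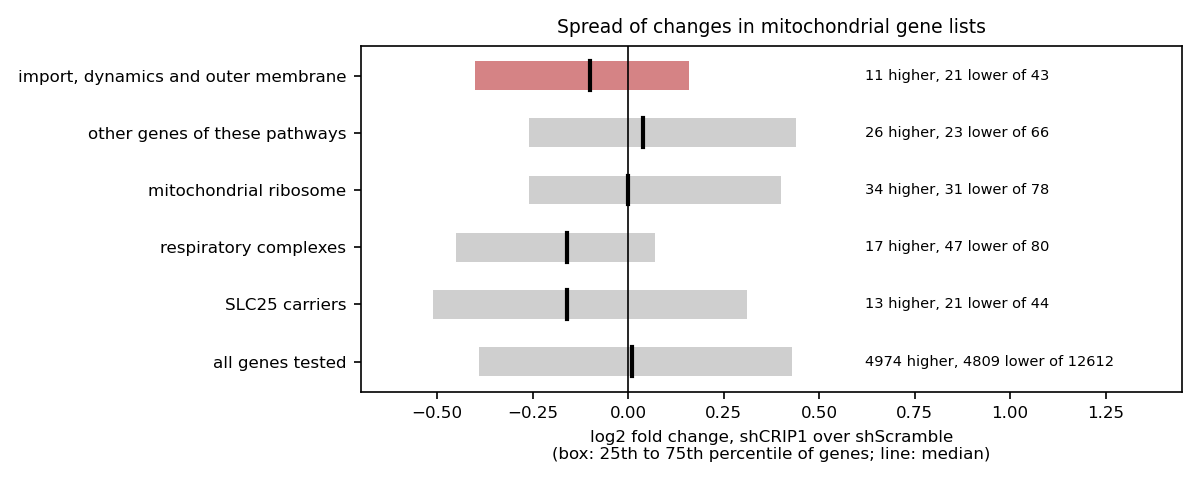
Log2 fold changes in the edgeR fit for the members, the other genes of these pathways, 3 further mitochondrial lists and all genes tested, with boxes from the 25th to the 75th percentile of genes and a line at the median. The members' box spans -0.40 to 0.16 and that of all genes tested -0.39 to 0.43.

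Promoter sequence was examined because members of one machine moved in opposite directions. RefSeq windows of 250 bases before to 50 after the start were matched by gene identifier for 40 of the 43 tested members and searched on both strands for 5 exact motifs: NRF1 (GCATGCGC), ETS (CCGGAAGT), YY1 (AAGATGGC), CRE (TGACGTCA) and the GC box (GGGCGG). The ETS letters, the core bound by factors such as GABPA, stood in the windows of 6 of 11 members called higher, 2 of 18 called lower and 2 of 11 not called. Among all genes with a window, 4.95% held them, and among tested genes 10.08%, with 11.32% of all genes called higher and 8.43% of those called lower. The 6 were TOMM70, MTX2, TOMM20, MFN1, TIMM10 and TIMM10B, of which TOMM20 and MFN1 stood at -0.03 and 0.00 with the GC trend removed. The ETS letters also stood in FIS1 and CHCHD2, called lower, and in TOMM6 and TIMM29, not called. YY1 letters were in 3 of 18 members called lower, TOMM40L, PMPCA and TIMM50, in 0 of 11 called higher and in 6.49% of tested genes. NRF1 letters were in 5 of 40 members and 6.64% of tested genes, CRE letters in 0 of 40 and 3.78%, and the GC box in 67.5% and 76.81%. A match describes the letters in the window and is not a shown binding site, and no enrichment was tested.

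The ETS matches of the members called higher are shown in the following stretches of 126 bases, from 110 before to 16 after the start, written 5′ to 3′ on the gene's strand in GRCh38.p14. These stretches were picked by direction of change, and the matches in FIS1, CHCHD2, TOMM6 and TIMM29 are not printed. They lie in TOMM70 at chr3:100401074-100401199 (minus strand), MTX2 at chr2:176269332-176269457 (plus strand), TOMM20 at chr1:235128822-235128947 (minus strand), MFN1 at chr3:179347599-179347724 (plus strand), TIMM10 at chr11:57530739-57530864 (minus strand) and TIMM10B at chr11:6481391-6481516 (plus strand). Capitals mark the ETS letters or their reverse complement and, in TIMM10B, a further match to NRF1.
TOMM70: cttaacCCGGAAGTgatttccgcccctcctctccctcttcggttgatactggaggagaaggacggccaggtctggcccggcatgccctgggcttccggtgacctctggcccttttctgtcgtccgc
MTX2: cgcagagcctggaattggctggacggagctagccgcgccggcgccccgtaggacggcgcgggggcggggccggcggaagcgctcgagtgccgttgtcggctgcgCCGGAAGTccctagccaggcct
TOMM20: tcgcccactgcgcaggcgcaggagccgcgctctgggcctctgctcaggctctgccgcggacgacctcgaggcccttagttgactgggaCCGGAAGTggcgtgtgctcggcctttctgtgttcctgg
MFN1: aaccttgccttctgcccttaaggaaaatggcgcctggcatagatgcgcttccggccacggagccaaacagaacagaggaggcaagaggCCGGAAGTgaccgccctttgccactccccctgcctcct
TIMM10: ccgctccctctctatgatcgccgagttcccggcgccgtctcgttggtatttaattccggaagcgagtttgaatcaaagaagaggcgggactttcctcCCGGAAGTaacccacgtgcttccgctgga
TIMM10B: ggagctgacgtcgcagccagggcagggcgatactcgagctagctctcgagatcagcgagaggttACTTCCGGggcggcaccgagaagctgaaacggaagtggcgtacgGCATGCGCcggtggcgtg

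The same stretches of the members called lower with the largest changes among the YY1 matches lie in TOMM40L at chr1:161225950-161226075 (plus strand) and PMPCA at chr9:136410548-136410673 (plus strand). Capitals mark the YY1 letters, which occur more than once in TOMM40L and close the stretch of PMPCA.
TOMM40L: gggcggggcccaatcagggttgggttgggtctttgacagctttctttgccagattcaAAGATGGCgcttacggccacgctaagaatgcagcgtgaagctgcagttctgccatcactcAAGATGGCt
PMPCA: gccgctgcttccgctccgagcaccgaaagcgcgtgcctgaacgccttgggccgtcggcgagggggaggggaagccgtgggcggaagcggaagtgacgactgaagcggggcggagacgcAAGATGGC

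The TOM complex is the entry gate of the outer membrane. Of the 9 tested genes with a TOMM symbol, which also take in the channel relative TOMM40L and the cytosolic TOMM34, 5 fell and 3 rose, with TOMM20 among the latter turning to -0.03 once the GC trend was removed. The lower and higher shares were 55.6% and 33.3%, against 38.1% and 39.4% of all genes tested. TOMM40L encodes a relative of TOMM40, the channel that precursors pass through. Its levels were 57.8, 58.1 and 60.0 TPM in scramble and 28.4, 31.0 and 32.3 TPM in the knockdown. All scramble libraries stood well above all knockdown libraries. The log2 fold change was -1.07 (SE 0.05, edgeR adjusted p = 9.214e-14). TOMM70, a receptor for carrier precursors and their chaperones, had 75.6, 77.2 and 76.7 TPM in scramble and 132, 124 and 133 TPM in the knockdown. The groups were far apart in the other direction, with a log2 fold change of 0.62 (SE 0.04, edgeR adjusted p = 2.303e-12), or 0.34 with the GC trend removed.

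Among the small TOM subunits, which hold the channel together, TOMM5 fell by 0.53 and TOMM7 by 0.20 on the log2 scale, the latter a call that was lost on the TPM scale. TOMM6 had 620, 619 and 621 TPM in scramble and 679, 676 and 671 TPM in the knockdown. Its knockdown TPM values lay above all scramble values, yet its edgeR log2 fold change was -0.01 (SE 0.04, adjusted p = 0.8286), it was called higher at 0.12 on the TPM scale, and it was called lower at -0.09 with the GC trend removed. The channel gene TOMM40 fell by 0.29 and the central receptor TOMM22 by 0.34. TOMM20, the receptor for cleavable leaders, rose by 0.17, although it stood at -0.03 with the GC trend removed, and TOMM34, a cytosolic cochaperone of import, rose by 0.20. The TPM ratio of TOMM22 to TOMM20, a pair chosen after its values were seen, was 0.502 ± 0.0107 in scramble and 0.353 ± 0.0346 in the knockdown (SD, n = 3).

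In the TIM23 complex, the inner membrane channel and its motor, 3 of 7 genes fell, 2 rose and 2 did not pass. That is 42.9% lower and 28.6% higher, against 38.1% and 39.4% of all genes tested. TIMM21, which docks TIM23 to the TOM complex, had 105.5, 98.5 and 99.7 TPM in scramble and 83.4, 76.3 and 75.3 TPM in the knockdown. The groups did not overlap, and its log2 fold change was -0.52 (SE 0.05, edgeR adjusted p = 4.283e-09). TIMM17B, a paralog of TIMM17A and part of the channel, had 149, 148 and 146 TPM in scramble and 218, 236 and 223 TPM in the knockdown. It rose by 0.50 (SE 0.05, edgeR adjusted p = 9.764e-09). TIMM17A had 243, 229 and 228 TPM in scramble and 267, 240 and 243 TPM in the knockdown, with overlapping groups and a log2 fold change of -0.04 (SE 0.04, adjusted p = 0.4029). It stood at 0.10 without a call on the TPM scale and was called lower at -0.23 with the GC trend removed. The receptor gene TIMM50 fell by 0.28, the channel gene TIMM23 fell by 0.21, a call lost on the TPM scale, and TIMM44, which anchors the import motor, rose by 0.16, or by 0.10 without knockdown replicate 2. TIMM23B is nearly identical to TIMM23, so that reads may be split between the pair in a proportion set by the counting, and its value of 0.05 did not pass.

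The small TIM chaperones, which guide hydrophobic precursors across the space between the membranes, are counted here with the TIM22 genes, and of these 8 genes 2 rose, 2 fell and 4 did not pass, with TIMM13, one of the lower genes, at 0.01 on the TPM scale. So 25% were higher and 25% lower, against 39.4% and 38.1% of all genes tested. TIMM8B had 90.1, 84.0 and 82.7 TPM in scramble and 60.8, 58.7 and 66.2 TPM in the knockdown. Its groups were separate and its log2 fold change was -0.61 (SE 0.07, edgeR adjusted p = 1.423e-07). TIMM10B, which binds the chaperones to TIM22, had 20.5, 23.1 and 22.0 TPM in scramble and 31.7, 31.6 and 32.4 TPM in the knockdown, a rise of 0.41 (SE 0.06, edgeR adjusted p = 1.085e-06). TIMM8A, the gene mutated in a deafness and dystonia syndrome, had 24.9, 20.5 and 19.5 TPM in scramble and 29.9, 22.4 and 25.2 TPM in the knockdown. Its groups overlapped and its log2 fold change was 0.03 (SE 0.10, adjusted p = 0.7707), or -0.15 with the GC trend removed. TIMM10 rose by 0.18, or by 0.12 without knockdown replicate 2. Its partner TIMM9 did not pass at -0.06 or, on the TPM scale, at 0.07, and was called lower at -0.24 with the GC trend removed. TIMM13 fell by 0.13 (adjusted p = 0.03828), a call lost without scramble replicate 1, without scramble replicate 2 or without knockdown replicate 3 (-0.08, -0.14 and -0.08). The TIMM13 call was also lost with the DESeq2 test (-0.131), upper-quartile scaling (-0.085), a filter at 50 counts (-0.115) and log2(FPKM + 1) (-0.038). TIMM22, the carrier insertion channel, stood at 0.15 and its subunit TIMM29 at 0.14, neither passing. On the TPM scale both were called higher, at 0.26 and 0.27, and TIMM22 was also called with upper-quartile scaling (0.19) and without knockdown replicate 1 (0.23). Further calls of TIMM22 came with a filter at 50 counts (0.165) and with the GC trend removed beside a replicate block (0.145).

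SAM and the mitochondrial contact site and cristae organizing system (MICOS) meet between the membranes, and 3 of their 5 genes fell, 1 rose and 1 did not pass. Lower and higher shares of 60% and 20% in so few genes stand beside 38.1% and 39.4% of all genes tested. CHCHD3, a MICOS subunit, had 170, 157 and 160 TPM in scramble and 120, 113 and 111 TPM in the knockdown. The knockdown libraries were all lower, with a log2 fold change of -0.66 (SE 0.05, edgeR adjusted p = 3.986e-11). IMMT, the MICOS core protein mitofilin, fell by 0.46. MTX1 and MTX2 encode metaxins, which sit on the cytosolic face of SAM. MTX1 had 89.1, 83.7 and 81.8 TPM in scramble and 68.3, 67.1 and 69.3 TPM in the knockdown, a fall of 0.47 on the log2 scale (SE 0.05, edgeR adjusted p = 2.458e-08). MTX2 moved the other way, from 96.7, 95.2 and 97.2 TPM to 139, 143 and 148 TPM, a rise of 0.41. Neither gene's groups overlapped, and the MTX1 to MTX2 ratio of TPM, chosen after the values were seen, was 0.881 ± 0.0404 in scramble and 0.476 ± 0.0137 in the knockdown (SD, n = 3). SAMM50, the SAM barrel itself, had 59.2, 60.5 and 57.7 TPM in scramble and 70.2, 68.1 and 69.2 TPM in the knockdown. Its TPM groups were separate, but its edgeR log2 fold change of 0.09 (SE 0.05, adjusted p = 0.09954) did not pass. SAMM50 was called higher at 0.22 on the TPM scale, at 0.174 with log2(FPKM + 1) and at 0.131 with upper-quartile scaling.

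The matrix processing peptidase, which cuts leaders from imported precursors, is a dimer of the PMPCA and PMPCB products. PMPCA, the substrate-binding subunit, had 88.7, 83.4 and 87.2 TPM in scramble and 53.6, 52.3 and 51.1 TPM in the knockdown. All scramble values lay above all knockdown values, and the log2 fold change was -0.86 (SE 0.05, edgeR adjusted p = 5.441e-13), or -0.92 with the GC trend removed. PMPCB, the catalytic subunit, had 119, 118 and 115 TPM in scramble and 143, 133 and 145 TPM in the knockdown. It rose by 0.17 (SE 0.04, edgeR adjusted p = 5.035e-04) in the edgeR fit and stood at -0.02 with the GC trend removed, where it did not pass. The PMPCA to PMPCB ratio of TPM, chosen after the values were seen, was 0.737 ± 0.0285 in scramble and 0.373 ± 0.0195 in the knockdown (SD, n = 3). Exons of PMPCB overlap those of DNAJC2 on the other strand by 628 bases, and DNAJC2 stood at 80.8 TPM in scramble and 54.5 TPM in the knockdown, so reads of the pair cannot be told apart without strand.

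Of the twin CX9C proteins, small cysteine-rich proteins of the space between the membranes, 1 fell, 1 rose and 1 did not pass. Each direction thus held 33.3%, near the 38.1% lower and 39.4% higher of all genes tested. CHCHD2 had 1127, 1247 and 1263 TPM in scramble and 890, 1009 and 994 TPM in the knockdown. It was among the most abundant members, its groups did not overlap, and it fell by 0.47 (SE 0.05, edgeR adjusted p = 4.825e-08). CHCHD10, its paralog and binding partner, had 68.8, 84.2 and 82.4 TPM in scramble and 104, 125 and 120 TPM in the knockdown, a rise of 0.43 (SE 0.09, edgeR adjusted p = 1.371e-04). Replicate 1 was the lowest of its group for both genes in both groups. CHCHD4, the oxidoreductase that folds these proteins on import, had 37.5, 43.7 and 40.8 TPM in scramble and 42.0, 39.2 and 41.4 TPM in the knockdown. Its groups overlapped and its log2 fold change of -0.14 (SE 0.07, adjusted p = 0.06001) did not pass, with 0.01 on the TPM scale. It was called lower at -0.21 with the GC trend removed and at -0.19 without scramble replicate 1.

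Within the fusion GTPases, OPA1, which joins inner membranes, had 56.6, 56.1 and 54.4 TPM in scramble and 48.1, 47.3 and 49.0 TPM in the knockdown. The groups were close but separate, and it fell by 0.35 (SE 0.04, edgeR adjusted p = 2.742e-08). MFN1, an outer membrane mitofusin, had 23.1, 24.1 and 23.5 TPM in scramble and 31.0, 30.1 and 28.9 TPM in the knockdown, and rose by 0.22 (SE 0.05, edgeR adjusted p = 2.786e-04), against 0.00 and no call with the GC trend removed. MFN2, the more abundant mitofusin here, had 68.0, 62.9 and 63.2 TPM in scramble and 62.2, 64.6 and 65.5 TPM in the knockdown. Its groups overlapped, and its decrease of -0.15 (SE 0.04, edgeR adjusted p = 0.003351) was no longer called on the TPM scale at -0.01.

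For division, DNM1L, the GTPase that constricts the organelle, had 47.1, 49.6 and 51.0 TPM in scramble and 32.2, 31.8 and 35.1 TPM in the knockdown. Every knockdown library was lower than every scramble library, and it fell by 0.71 (SE 0.05, edgeR adjusted p = 1.204e-11), or by 0.90 with the GC trend removed. MFF, the main receptor that recruits DRP1, had 50.02, 50.6 and 49.2 TPM in scramble and 48.0, 49.97 and 50.1 TPM in the knockdown. Its groups overlapped and its log2 fold change of -0.10 (SE 0.05, adjusted p = 0.08812) did not pass, although -0.25 with the GC trend removed did. FIS1, another outer membrane protein of division, had 174, 167 and 159 TPM in scramble and 140, 170 and 150 TPM in the knockdown, with knockdown replicate 2 inside the scramble range. It fell by 0.26 (SE 0.07, edgeR adjusted p = 0.001492), a call that was lost on the TPM scale at -0.13. The DNM1L to MFF ratio of TPM, chosen after the values were seen, was 0.987 ± 0.0474 in scramble and 0.670 ± 0.0323 in the knockdown (SD, n = 3).

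The VDAC porins pass metabolites through the outer membrane and all stood above the TOM channel gene TOMM40 in TPM. VDAC1 had 436, 458 and 454 TPM in scramble and 326, 337 and 322 TPM in the knockdown. The groups were far apart, and it fell by 0.59 (SE 0.04, edgeR adjusted p = 5.303e-12). VDAC2, known for holding the cell death protein BAK in check, had 279, 292 and 290 TPM in scramble and 334, 338 and 321 TPM in the knockdown. Its edgeR log2 fold change of 0.07 (SE 0.04, adjusted p = 0.08769) did not pass. It was called higher at 0.20 on the TPM scale, at 0.158 with log2(FPKM + 1) and without knockdown replicate 3 (0.10). Upper-quartile scaling (0.113) and a filter at 50 counts (0.084) also called VDAC2 higher, and it was called lower at -0.08 with the GC trend removed. VDAC3 had 393, 367 and 379 TPM in scramble and 392, 383 and 404 TPM in the knockdown, with overlapping groups. Its decrease of -0.09 (SE 0.04, edgeR adjusted p = 0.03047) stood at 0.05 on the TPM scale and was lost without scramble replicate 1, without scramble replicate 3 or without knockdown replicate 1 (-0.07, -0.10 and -0.08). The VDAC3 call was also lost with upper-quartile scaling (-0.047) and a filter at 50 counts (-0.076). In scramble VDAC1 stood above VDAC3 and VDAC3 above VDAC2 with no overlap of libraries, and in the knockdown VDAC3 stood highest, while VDAC1 and VDAC2 overlapped.

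Shares within paralog groups do not depend on how libraries are scaled to each other. VDAC1 made up 40.3% ± 0.860 of the summed VDAC TPM in scramble and 31.2% ± 0.603 in the knockdown (SD, n = 3), while VDAC2 went from 25.7% ± 0.474 to 31.4% ± 0.690 and VDAC3 from 34.0% ± 1.33 to 37.4% ± 1.21. TOMM40L made up 22.9% ± 1.10 of its pair with TOMM40 in scramble and 14.7% ± 0.386 in the knockdown. TIMM17B held 38.7% ± 0.679 of its pair with TIMM17A and then 47.5% ± 2.36. For MFN1 against MFN2 the share was 26.7% ± 1.21 and 31.9% ± 1.33, and for TIMM8A against TIMM8B 20.1% ± 1.36 and 29.4% ± 3.10. CHCHD10 held 6.1% ± 0.291 of its pair with CHCHD2 in scramble and 10.8% ± 0.266 in the knockdown. In each of these groups all 3 knockdown shares lay on 1 side of all 3 scramble shares. Such shares still carry any difference in GC content or length between the paralogs. With the GC trend removed, MFN1 and MFN2 stood at 0.00 and -0.12 on the log2 scale, closer together than the 0.22 and -0.15 of the edgeR fit, while TIMM8A and TIMM8B stood at -0.15 and -0.77 against 0.03 and -0.61.

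**Figure D4:**
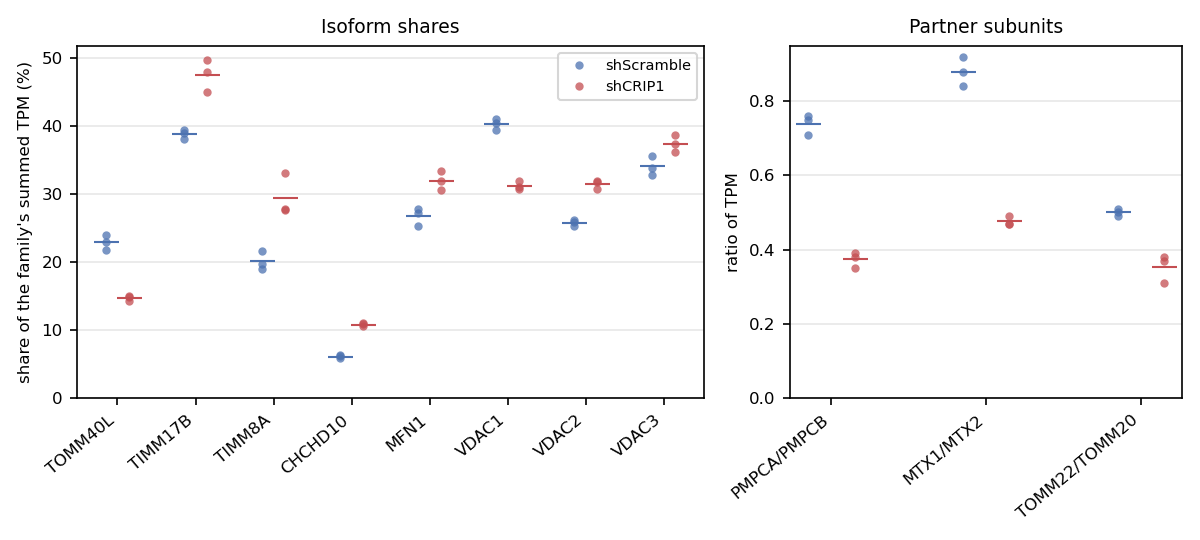
Left, share of the summed TPM within each group of paralogs, in percent, with 1 point per library for scramble and knockdown. Right, TPM ratios of PMPCA to PMPCB, MTX1 to MTX2 and TOMM22 to TOMM20, drawn in the same way. VDAC1 and TOMM40L hold a smaller share in the knockdown and TIMM17B, MFN1, TIMM8A, CHCHD10, VDAC2 and VDAC3 a larger one.

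Of 66 genes that work beside the members, 26 were higher and 23 lower (39.4% and 34.8%, against 39.4% and 38.1% of all genes tested), shares near the background. Their median log2 fold change was 0.04, and the split was 33 higher and 19 lower on the TPM scale and 24 and 31 with the GC trend removed. Of 17 import genes outside the rule, 8 rose and 5 fell. HSPA9, the mitochondrial HSP70 that powers import, rose by 0.62 from 466 to 788 TPM, and DNAJC19, a subunit of its motor, by 0.49. The inner membrane peptidase genes IMMP1L and IMMP2L rose by 0.86 and 0.94. Of 7 MICOS and SAM partners, 2 rose and 3 fell. CHCHD6, a MICOS subunit that binds the CHCHD3 product, fell by 1.05 from 34.6 to 17.8 TPM, and the MICOS genes APOO and DNAJC11 fell by 0.47 and 0.30. MICOS13, a further subunit named after its values were seen, rose by 0.20, while MICOS10 and APOOL did not pass at -0.03 and -0.04. MTX3, a further metaxin, rose by 0.76.

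Of 21 adaptors of fusion and division and inner membrane proteases, 7 rose and 8 fell, or 33.3% and 38.1%. All genes tested stood at 39.4% higher and 38.1% lower. MTFP1, a promoter of division, fell by 0.90 from 48.2 to 27.9 TPM, and PHB, a prohibitin scaffold of the inner membrane, fell by 0.61. PLD6, an outer membrane phospholipase, rose by 0.65, and the protease gene PARL rose by 0.49. Of 21 outer membrane genes of insertion, transport and quality control, 9 rose and 7 fell, or 42.9% and 33.3%. TRAK2, a motor adaptor that moves mitochondria along microtubules, fell by 1.03 from 16.5 to 8.92 TPM. PINK1, the kinase that accumulates on the TOM complex of damaged mitochondria, fell by 1.00 from 32.9 to 18.01 TPM. MTCH2, an insertase of the outer membrane, fell by 0.78, and HK1, a hexokinase that docks on VDAC, rose by 0.92 from 12.8 to 26.4 TPM. HK2, another hexokinase gene of this list named after its values were seen, fell by 0.73 from 25.1 to 16.7 TPM.

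The members share little in position. They lie on 18 chromosomes, and tested genes within 500 kb of a member moved in both directions for most. Around TOMM40L, 10 of 19 such genes were higher and 4 lower, while TOMM40L itself fell. Around TOMM70, which rose, 5 of 6 were higher and 0 lower, with a median log2 fold change of 0.41. Around OPA1, which fell, 3 of 3 were higher, with a median of 0.91. Around MTX2, which rose, 0 of 2 were higher and 1 was lower. Of all genes tested, 39.4% were higher and 38.1% lower, and no local effect was tested. Median GC content was 53.4% in members called higher, 48.1% in those called lower and 47.1% in those not called, against 49.6% in all genes tested. Exons of 22 tested members overlap those of another gene. TOMM40L shares 661 bases with NR1I3, which stood at only 0.16 TPM in scramble and 0.583 TPM in the knockdown, and TOMM70 shares 206 bases with LNP1, at 2.04 and 4.98 TPM. TIMM17B shares 77 bases with PQBP1, which was more abundant at 241 and 319 TPM. TIMM8B shares 351 bases with NKAPD1, at 22.9 and 23.9 TPM, and 26 bases with SDHD, at 160 and 185 TPM. TIMM13 shares 257 bases with LMNB2, at 75.7 and 60.4 TPM, on the same strand, so strand would not separate reads of that pair. For 11 tested members, among them TOMM40L, DNM1L, MTX1, TIMM8B, PMPCB and MFN1, some estimated counts lay further than 0.005 from a whole number, so that part of their reads was shared out among genes by the authors' counting.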

How the data were processed

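The authors deposited, per the file headers, an estimated count, an FPKM and a TPM value per gene and library. These expected counts need not be whole, and the deposited FPKM and TPM values were used as given. HISAT2 2.1.0, Bowtie2 2.2.5, RSEM 1.2.8 and GRCh38.p13 are named, per the submitters' processing notes, without roles, and the annotation and strand setting are not given in the sources used here. Groups and replicate numbers came from the sample titles. Rounded counts entered edgeR 4.0.16 (R 4.3.3; filterByExpr at a minimum count of 10, TMM, quasi-likelihood fit of group, Benjamini-Hochberg over 12612 genes). SEs were derived from each log2 fold change and its F statistic. The common biological coefficient of variation was 3.33%, and arms had 3 libraries each. Libraries of 1 group differed by more than sampling noise (mean chi-square per gene 1.62 to 4.15), so none was treated as a repeat. The fit was tested on simulated data.

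Members and lists were chosen with earlier results of these data known, so no test over a list was made. TPM in every library is given for the 2 called members of each role with the largest changes and the one with the smallest change, and MTX2 was added after its values were seen. Up to 4 called neighbour genes a list with at least 5 TPM are named. Alternatives were the replicate block, DESeq2 1.42.0 and its size factors, upper-quartile scaling, 2 count filters, limma 3.58.1 on log2(TPM + 1), log2(TPM + 0.1) and log2(FPKM + 1) for genes of at least 1 in 3 libraries, a 1.2-fold test, GC trends removed by a loess offset (span 0.5, GC from GENCODE 29), and each library left out.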

Additional observations from a re-analysis of the deposited data

How the results depend on the processing

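Of 43 tested members, 18 kept their direction and side of the threshold in all 18 alternatives and 12 changed sign in at least 1. Against a 1.2-fold change, 5 members were higher and 13 lower, and 20 neighbour genes were higher and 14 lower. The replicate block gave 11 higher and 21 lower, the same call for all 43 members. Deviations of same-numbered libraries correlated at 0.05, -0.01 and -0.01. No pairing by number was seen over all genes, which does not exclude pairing for single genes. Leaving out 1 library gave 11 to 12 higher and 20 to 21 lower members, and 24 to 26 higher and 22 to 24 lower neighbour genes.

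TOMM20, PMPCB and MFN1, called at 0.17, 0.17 and 0.22, were among the log2 fold changes that changed sign, which follow, and the cause was not tested. On the log2(TPM + 1) scale they were TOMM6 0.124, TIMM17A 0.096, TIMM9 0.075, VDAC3 0.050, TIMM13 0.008 and CHCHD4 0.009, and with a pseudocount of 0.1 TOMM6 0.124, TIMM17A 0.096, TIMM9 0.076, VDAC3 0.051, TIMM13 0.008 and CHCHD4 0.009. The FPKM scale gave TOMM6 0.077, TIMM17A 0.049, TIMM9 0.029 and VDAC3 0.004. With the GC trend removed they were TIMM8A -0.153, VDAC2 -0.083, TIMM23B -0.056, TOMM20 -0.027, PMPCB -0.016 and MFN1 -0.003, and with the replicate block as well TIMM8A -0.155, VDAC2 -0.083, TIMM23B -0.057, TOMM20 -0.028, PMPCB -0.017 and MFN1 -0.003. Upper-quartile scaling gave TOMM6 0.033 and TIMM17A 0.003, and the filter at 50 counts gave TOMM6 0.003. Leaving out 1 library gave -0.042 to 0.009 for TOMM6, -0.089 to 0.112 for TIMM8A and -0.015 to 0.103 for TIMM23B. With 3 libraries a group a call that misses the threshold does not show that a gene was alike in both groups.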
